A study of Mus musculus with 8 samples.

Results

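Wnt4+ Uncx+ cells are the cells of the embryonic kidney that had at least 5 unique molecular identifiers (UMIs, each standing for a single captured RNA molecule) of *Wnt4* and at least 3 UMIs of *Six2*, *Eya1* and *Uncx* together. They were picked as induced nephron progenitors and cells of the pretubular aggregate. The rule found 468 of them among 6495 cells that could be assigned to a mouse (7.21%). *Wnt4*, *Six2*, *Eya1* and *Uncx* chose the cells, so that their levels are given below as a description and without a test. These cells came from a single pool of dissociated kidneys of 4 male embryos. Mice 1 and 2 were *Trim28*Δ/Δ, in which a floxed segment within *Trim28* is removed by the Six2-EGFP/cre transgene, which is active in nephron progenitors and marks their descendants but not the stroma or the ureteric bud. Mice 3 and 4 were *Trim28*f/f, with the floxed allele intact. The labels place the embryos at E17.5, whereas the methods of the study give a later day. In the study the transgene is what turns the floxed allele into the deleted one, so that transgene and deletion go together. Effects of the transgene and of the loss of *Trim28* can therefore not be told apart in any result here. The 6 bulk samples of newborn kidneys were not analysed here.

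A kidney grows by repeated rounds of nephron formation. Progenitors that express *Six2*, *Eya1* and *Cited1* gather around the tips of the ureteric bud, and Wnt9b from the bud induces some of them to switch on *Wnt4*, *Fgf8* and *Lhx1*, lose *Six2*, and form a pretubular aggregate, which then turns into an epithelial renal vesicle with Notch activity. TRIM28 is a corepressor that KRAB zinc finger proteins bring to DNA, above all to transposable elements, where it recruits histone methylation, and it also protects imprinted regions.

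Each mouse was told apart by a cell multiplexing oligonucleotide (CMO), a lipid-anchored DNA tag whose counts were read in a library of their own. The tags are shown because the whole comparison of genotypes rests on them. All bases of each are in capitals, since the whole run is the tag, and any pair of the 4 differs at 11 or more of its 15 positions.
mouse 1, *Trim28*Δ/Δ: CGCGATATGGTCGGA
mouse 2, *Trim28*Δ/Δ: CGGATTCCACATCAT
mouse 3, *Trim28*f/f: AAGATGAGGTCTGTG
mouse 4, *Trim28*f/f: AAGCTCGTTGGAAGA
A cell was given to a mouse when its highest tag had at least 50 counts and at least 80% of its counts over 8 tags. The median cell had between 4381 and 4832.5 counts of its own tag, which were 88.5% to 89.3% of its tag counts. In this way 1168 and 1289 cells were assigned to mice 1 and 2, and 2490 and 1548 to mice 3 and 4.

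The 468 Wnt4+ Uncx+ cells held 11393766 UMIs, with a median of 22318 UMIs and 5042.5 genes per cell. They were split into 49 and 61 cells of the *Trim28*Δ/Δ mice and 184 and 174 cells of the *Trim28*f/f mice. The summed counts of the *Trim28*Δ/Δ mice were thus the shallower ones. The doublet caller Scrublet marked 9.19% of these cells, against 5.88% of all assigned cells, and it marked 10 of the 49 cells of mouse 1 (20.4%). All mice shared a single gene expression library, so that no barcode could recur between libraries.

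The label was met only in part. *Uncx*, a homeobox gene of progenitors and early aggregates, carried the rule: 419 of the 468 cells (89.5%) had at least 3 *Uncx* UMIs, whereas 242 cells (51.7%) had no UMI of *Six2* or *Eya1*. A *Six2* UMI was found in 29.3% of the cells, an *Eya1* UMI in 40.6% and a UMI of *Tmem100*, a marker that the rule did not use, in 39.7%. *Lhx1*, a transcription factor of the pretubular aggregate and renal vesicle, had a UMI in 81.4%. As background, 592 other assigned cells with at least 10 UMIs of endothelial markers, which should lack *Six2*, *Eya1* and *Lhx1*, had a UMI of them in 3.04%, 6.76% and 21.5%, at a median of 13111 UMIs per cell against 22318. With all cells thinned to 6800 UMIs, the shares were 15.0% against 1.52% for *Six2*, 22.4% against 2.53% for *Eya1* and 73.1% against 11.5% for *Lhx1*. Summed *Six2*, however, was near or below the 18.5 CPM of free RNA in all mice but mouse 4, whose level is given below, so that a single UMI does not mark a given cell as a *Six2* cell. Endothelium expresses *Tmem100* itself and gives no background for it. The cells are named here by the genes of their rule.

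Levels are given as CPM, the UMIs of a gene summed over the cells of a mouse and scaled to a total of 1000000 gene UMIs. *Wnt4*, which encodes the signal that drives progenitors into the epithelial state, was at 932 and 862 CPM in mice 1 and 2 and at 854 and 925 CPM in mice 3 and 4. *Uncx* was at 306 and 282 CPM against 439 and 358 CPM. *Six2*, the transcription factor that keeps progenitors undifferentiated, was low, at 11.9 and 18.9 CPM against 20.6 and 43.7 CPM, and *Eya1*, its cofactor, was at 42.4, 37.9, 34.4 and 61.3 CPM. Among these genes, *Six2* and *Uncx* kept the genotypes apart, with the *Trim28*Δ/Δ mice lower, *Eya1* and *Wnt4* overlapped, and mouse 4 had the highest *Six2* and *Eya1*. *Tmem100* was at 77.3 and 73.8 CPM against 74.3 and 127 CPM, so that mouse 4 alone stood above the other mice.

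Set beside all other assigned cells, in a description that the rule makes unfit for a test, the genes with the largest ratios after *Wnt4*, with 10 CPM added to both levels so that low genes count less, were *Lhx1* (686 CPM against 106 CPM), *Npy* (93.3 against 7.52 CPM), *Uncx* and *Tmem100* (95.7 against 13.7 CPM). *Mycn*, a driver of progenitor growth, *Ccnd1*, which encodes cyclin D1, and *Dll1*, a Notch ligand, followed. *Ccnd1* reached 1152 CPM against 260 CPM in the other cells. *Sfrp2*, *Lama4*, *Pdzd2*, *Gja1*, *Sox11*, *Lhx1os*, *Hes5*, *Hey1* and *Sh3bgr* came next. The place of *Sh3bgr* rested on mice 1 and 2 (219 and 225 CPM), since mice 3 and 4 had 19.3 and 19.2 CPM, against 13.3 CPM in the other cells. *Hes5* was at 104 CPM in mouse 1 and at 37.2, 46.6 and 31.3 CPM in mice 2 to 4, against 5.97 CPM. The order rests on the added 10 CPM, since without it low genes such as *Tnni1* (35.1 against 3.75 CPM) and *Oxtr* (36.8 against 4.19 CPM), which stood lower among the leading 25 genes, would pass *Lhx1*.

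Just inside the limits, the 29 cells with exactly 5 *Wnt4* UMIs had 525 CPM of *Lhx1* and 14.3 CPM of *Six2*, and just outside, the 44 cells with 4 *Wnt4* UMIs had 345 CPM and 73.1 CPM. The 52 cells with exactly 3 UMIs of *Six2*, *Eya1* and *Uncx* together had 485 CPM of *Lhx1* and 104 CPM of *Tmem100*, and the 54 cells with 2 such UMIs had 409 CPM and 96.8 CPM. Across the *Wnt4* limit *Six2* thus differed more than *Lhx1* did, and across the other limit *Tmem100* and *Lhx1* were close.

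The cells differed among themselves along *Six2* and *Eya1*, shown here by *Lhx1*, *Jag1* and *Tmem100* and by *Dll1*, *Cdh1* and *Cited1*, which were chosen after their values were seen. Summed over the mice, *Lhx1* fell from 950 CPM in the 242 cells with no *Six2* or *Eya1* UMI to 666 CPM in the 113 cells with 1 or 2, 258 CPM in the 67 cells with 3 to 5 and 75.0 CPM in the 46 cells with 6 or more. *Jag1*, a Notch ligand of the renal vesicle, went in the same order from 252 to 157, 71.0 and 33.8 CPM. *Dll1* went from 135 to 76.4, 7.47 and 0.824 CPM. *Cdh1*, which encodes E-cadherin, was at 58.5 CPM in the first of these classes and at 17.3 CPM in the last. *Lhx1*, *Jag1*, *Dll1* and *Cdh1* were lower in the cells with at least 3 of the UMIs than in those with fewer in each of the 4 mice. *Cited1*, a marker of uninduced progenitors, was at 12.9, 11.3, 27.4 and 56.9 CPM in the pooled classes, but its higher level with at least 3 of the UMIs was that of mouse 4 (62.3 CPM against 13.6 CPM), which held 66 of these 113 cells. In mice 1, 2 and 3 it was lower there, at 4.67, 5.58 and 3.89 CPM against 9.72, 15.2 and 11.4 CPM. *Tmem100* was highest, at 185 CPM, in the pooled cells with 3 to 5 of the UMIs, and with at least 3 it was higher in mice 2, 3 and 4 and lower in mouse 1 (23.3 CPM against 87.5 CPM). *Wnt4* itself varied less, between 932 and 715 CPM. The median depth of the 4 classes lay between 21590 and 25539.5 UMIs, with the deepest cells in the class with most *Six2* and *Eya1* UMIs.

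**Figure D1:**
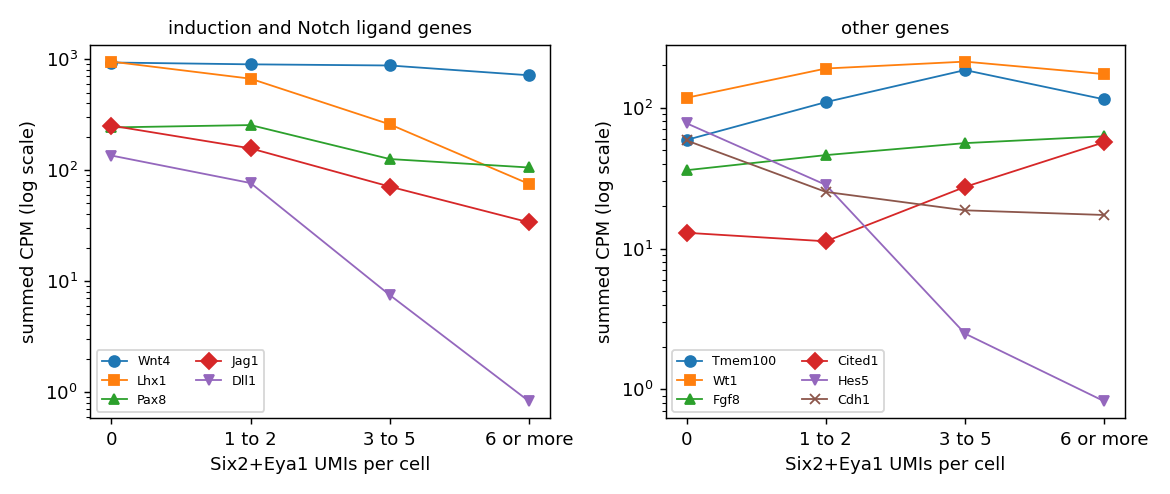
Summed CPM (log axis) of 11 genes in Wnt4+ Uncx+ cells grouped by their *Six2* plus *Eya1* UMIs (242, 113, 67 and 46 cells from all 4 mice, joined by lines, with no error shown because cells are not replicates). *Lhx1* fell from 950 to 75.0 CPM and *Dll1* from 135 to 0.824 CPM, while the 56.9 CPM of *Cited1* in the last class came with mouse 4, the only mouse in which it was higher with at least 3 of the UMIs.

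The mice held different mixtures of these cells. Cells with at least 3 *Six2* and *Eya1* UMIs were 16.3% of the Wnt4+ Uncx+ cells in mouse 1, 23.0% in mouse 2, 13.6% in mouse 3 and 37.9% in mouse 4. The *Trim28*Δ/Δ values lay between those of the *Trim28*f/f mice, and mice 3 and 4, of the same genotype, were the furthest apart.

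The first comparison asked whether the genotypes differ in how many cells reach this step. Wnt4+ Uncx+ cells came to 4.20% and 4.73% of the cells assigned to mice 1 and 2 (mean 4.46% ± 0.380, SD, n = 2). In mice 3 and 4 they came to 7.39% and 11.2% (9.31% ± 2.72, SD, n = 2). The groups did not overlap, and the exact (Clopper-Pearson) 95% intervals of mouse 2 (3.64% to 6.04%) and mouse 3 (6.39% to 8.49%) were apart as well, although intervals of this kind cover counting error only. The exact two-sided permutation test over the 4 mice gave p = 0.3333, the smallest p that 2 against 2 mice allow. A share of all cells also moves with the number of other cells recovered from each kidney.

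As a share of the cells with at least 3 *Six2*, *Eya1* and *Uncx* UMIs, which stand here for the progenitor lineage, the same cells came to 37.4% and 36.3% in mice 1 and 2, of 131 and 168 cells. In mice 3 and 4 they came to 35.5% and 32.7%, of 519 and 532 cells. The means were 36.9% ± 0.774 and 34.1% ± 1.94 (SD, n = 2 each), a difference of 2.78 percentage points with p = 0.3333 in the same exact permutation test, and all 4 binomial intervals overlapped. This difference turned to -0.763 points when at least 8 *Wnt4* UMIs were required, and was 0.919 points with at least 6 UMIs of *Six2*, *Eya1* and *Uncx*, 1.82 points after thinning and 10.1 points with the highest tag at 90% or more. The genotypes overlapped in the first 3 of these 4 settings. The lineage itself was 11.2% of the assigned cells in mouse 1, 13.0% in mouse 2, 20.8% in mouse 3 and 34.4% in mouse 4.

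**Figure D2:**
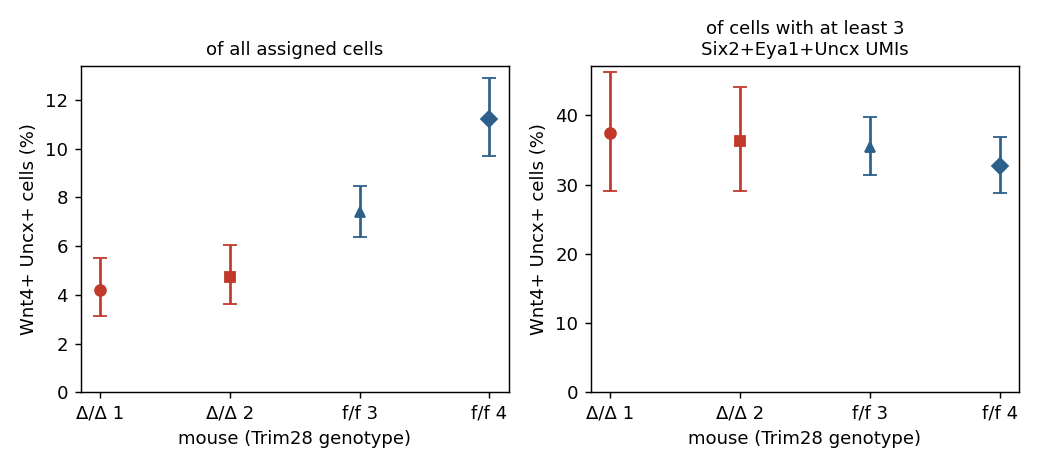
Wnt4+ Uncx+ cells per mouse as a percent of all assigned cells (left) and of cells with at least 3 *Six2*, *Eya1* and *Uncx* UMIs (right), with exact 95% binomial intervals that cover counting error only. On the left the *Trim28*Δ/Δ mice (4.20% and 4.73%) lay below the *Trim28*f/f mice (7.39% and 11.2%), and on the right all intervals overlapped.

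By scores over 43 S phase and 54 G2/M genes, most of these cells were placed outside G1. The share was 81.6% and 80.3% in mice 1 and 2 and 78.3% and 95.4% in mice 3 and 4. The *Trim28*Δ/Δ mice lay between the *Trim28*f/f mice (exact permutation p = 1, n = 2 each), and the sign of the difference was that of mouse 4, since without it the difference was 2.72 points in place of -5.85. After each cell was thinned to 6800 UMIs the shares were 81.6%, 80.3%, 79.3% and 96.0%. A UMI of *Mki67* or *Top2a*, both genes of dividing cells and the first chosen after its values were seen, was then found in 81.6%, 72.1%, 75.5% and 82.8% of the cells of mice 1 to 4. Free RNA can add to such calls, and its part was not tested.

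The second comparison asked which genes differ between the genotypes within the Wnt4+ Uncx+ cells, with the counts summed per mouse. Few did. Of 11500 genes tested, 11 passed (0.0957%), 10 of them higher (0.087%) and 1 lower (0.0087%) in *Trim28*Δ/Δ cells, by edgeR's quasi-likelihood test at a Benjamini-Hochberg adjusted p under 0.05. The unadjusted p was under 0.05 for 712 genes. The count depended on single mice, with 7 genes without mouse 1, 6 without mouse 2, 96 without mouse 3 and 247 without mouse 4, of which 4, 4, 10 and 11 were among the 11. In only those cells with at most 2 *Six2* and *Eya1* UMIs, a choice made after the data were seen, 19 of 10680 genes were higher and 2 lower. The lower gene was *Trim28*. On simulated counts of this design, in which 98 genes changed 4-fold and 99 changed 2-fold, the same test recovered 85.7% and 28.3% of them. Of 11245 genes it thus called 84 and 28 that were changed, and it made 11 false calls beside them. So many changed genes make the adjusted threshold looser than in the data, so that these shares can be too high. Changes of 2-fold were thus mostly out of reach, and larger ones can be missed as well. From here on the CPM of genes are scaled by edgeR's TMM factors, and the error of a log2 change is its SE.

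*Trim28* (ENSMUSG00000005566) was at 27.5 and 34.1 CPM in mice 1 and 2 and at 156 and 176 CPM in mice 3 and 4. It fell by 2.42 on the log2 scale (SE 0.196, adjusted p = 0.00259). A *Trim28* UMI was seen in 46.9% and 44.3% of the *Trim28*Δ/Δ cells and in 95.1% and 98.9% of the *Trim28*f/f cells. Free RNA, taken from barcodes with 10 to 100 UMIs, held 115 CPM of *Trim28*, and the 3′ counts can also come from gene parts outside the floxed segment, so that these UMIs do not show whether a given cell carried the deletion. Without mouse 1 the log2 change was -2.28, and *Trim28* fell short of the threshold.

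*Six3* (ENSMUSG00000038805, chr17:85613608-85629302 on GRCm38) rose from near 0. It encodes a homeobox factor of the same family as *Six2* that is best known from the forebrain and eye. Its UMIs numbered 87 and 82 in the *Trim28*Δ/Δ mice and 1 and 4 in the *Trim28*f/f mice, which made 63.0 and 54.8 CPM against 0.258 and 0.900 CPM. A UMI was found in 42.9% and 47.5% of the *Trim28*Δ/Δ cells and in 0.543% and 0.575% of the *Trim28*f/f cells (adjusted p = 0.000544). The ratio of its UMIs between the genotypes, each scaled to all gene UMIs, was 103, with a 95% counting interval from 43.1 to 320. Such intervals, here and below, take UMIs as independent and cover neither the spread of cells nor that of mice. The 4 UMIs of mouse 4 came from 1 cell. Free RNA held 7.81 CPM. The *Trim28*f/f share of cells with a UMI is not read as expression, since 0.712% of the endothelial cells of these mice had a UMI. The source of the 4 UMIs in 1 cell was not tested. On the same chromosome, 54975 bp lie between the end of *Six3* and the nearest end of *Six2*, which is on the minus strand. The Six2-EGFP/cre transgene carries DNA of the *Six2* locus. For this gene, as for the others, the transgene and the loss of *Trim28* cannot be told apart.

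*Sh3bgr* (ENSMUSG00000040666, chr16:96200450-96228935), which encodes a glutamate-rich protein with an SH3-binding motif, had the smallest adjusted p. It was at 213 and 222 CPM against 20.2 and 19.6 CPM, a log2 change of 3.45 (SE 0.173, adjusted p = 0.000149). It was found in 59.2% and 60.7% of the *Trim28*Δ/Δ cells and in at most 25% of the cells of either *Trim28*f/f mouse. Free RNA of the shared pool held 11.4 CPM of it.

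*Meg3* (ENSMUSG00000021268, chr12:109541001-109571726), an imprinted noncoding RNA expressed from the maternal chromosome, was at 81.1 and 82.2 CPM against 29.7 and 21.1 CPM (log2 change 1.69, SE 0.227, adjusted p = 0.0497). *Rian*, a noncoding RNA of the same imprinted cluster and named after its values were seen, was at 12.3 and 12.7 CPM against 4.91 and 4.50 CPM (adjusted p = 0.467). *Meg3* was abundant in free RNA (129 CPM), and it lost the threshold in 6 of 13 alternatives. In these its log2 change was 2.003 without the cells that Scrublet marked (adjusted p = 0.0632, edgeR), 1.70 without mouse 1 and 1.68 without mouse 2. It was 1.95 with at least 8 *Wnt4* UMIs (adjusted p = 0.212, edgeR). With at least 6 UMIs of *Six2*, *Eya1* and *Uncx* it was 1.60 (adjusted p = 0.239, edgeR). With the highest tag at 90% or more it shrank to 1.33 (adjusted p = 0.372, edgeR).

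The other genes that rose were 3 protein-coding genes of metabolism and degradation, a transcription factor and 3 noncoding transcripts. *Akr1c18*, a reductase that inactivates progesterone, was at 38.4 and 34.1 CPM against 6.46 and 4.27 CPM (adjusted p = 0.024). *Dnase2a*, which encodes the DNase of lysosomes, was at 42.0 and 36.1 CPM against 9.30 and 6.52 CPM (adjusted p = 0.0392). *Alox15*, a lipoxygenase of fatty acids, had 19 and 19 UMIs against 3 and 4, a scaled ratio of 16.5 with a counting interval from 7.27 to 43.7 (adjusted p = 0.0497). Free RNA held 17.1, 16.7 and 2.72 CPM of these genes, above their level in the *Trim28*f/f cells, so that their UMIs there are not read as expression. Without mouse 1 and without mouse 2, the adjusted p was 0.196 and 0.0877 for *Akr1c18*, 0.3332 and 0.124 for *Dnase2a* and 0.404 and 0.270 for *Alox15*, which lost the threshold in 8 of 13 alternatives. The log2 changes stayed close to those with all mice, as at 2.67 and 2.84 for *Akr1c18* against 2.75.

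*Tcfl5*, a helix-loop-helix factor best known from the male germ line, had 15 and 36 UMIs against 2 and 1, a ratio of 51.6 with a counting interval from 16.7 to 259 (adjusted p = 0.0392). *Gm26640*, a long noncoding RNA, had 26 and 20 UMIs against 1 and 0, a ratio of 140 with an interval from 23.8 to 5635 (adjusted p = 0.024). *Gm11100* was at 62.3 and 108 CPM against 5.68 and 4.72 CPM (adjusted p = 0.00259), and *Gm49708* at 205 and 235 CPM against 50.6 and 72.4 CPM (adjusted p = 0.0223). Both are annotated as processed transcripts. Free RNA held 2.36 CPM of *Tcfl5*, 4.72 CPM of *Gm26640* and 35.1 CPM of *Gm11100*, above their level in the *Trim28*f/f cells, so that the UMIs there are not read as expression and the ratios compare with that background. Without mouse 2 the adjusted p was 0.311 for *Tcfl5*, 0.0788 for *Gm26640* and 0.124 for *Gm49708*, and without mouse 1 it was 0.233 for *Gm26640* and 0.107 for *Gm49708*. All 11 genes kept the mice of the genotypes apart, as did 17.8% of all genes tested that were higher and 18.1% that were lower in both *Trim28*Δ/Δ mice.

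**Figure D3:**
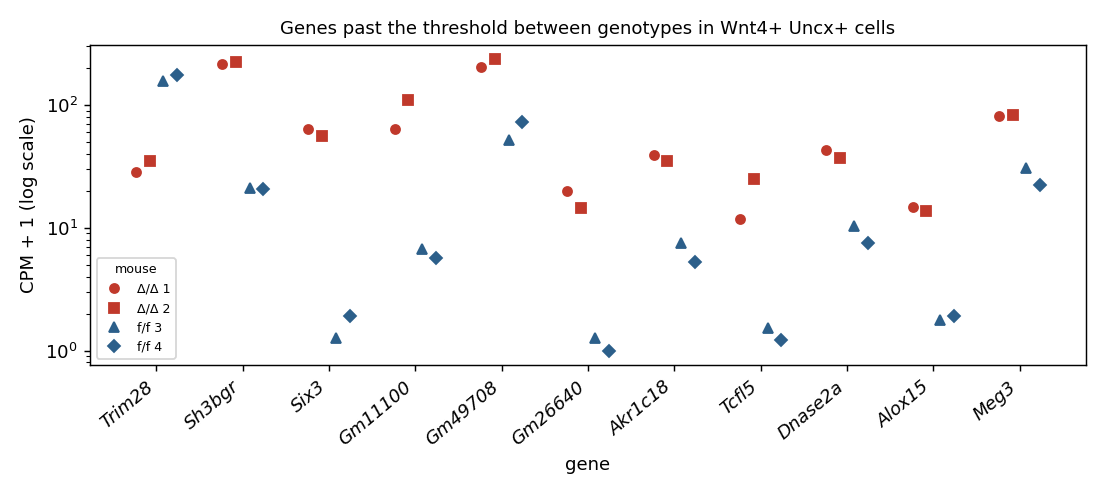
CPM plus 1 (log axis) of the 11 genes past the threshold in Wnt4+ Uncx+ cells, with a symbol for each mouse, red for *Trim28*Δ/Δ and blue for *Trim28*f/f. The genotypes did not overlap for any of these genes, and *Six3*, *Gm26640*, *Tcfl5* and *Alox15* lay below 1 CPM in both *Trim28*f/f mice.

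The higher genes were not seen in these cells alone. Other cells are here the assigned cells outside the Wnt4+ Uncx+ cells and outside the Wnt4-low and early epithelial classes described below. In raw CPM, they held 148 and 185 CPM of *Gm11100* in mice 1 and 2. Against this stood 6.44 and 11.3 CPM in mice 3 and 4, and each mouse had more than in its Wnt4+ Uncx+ cells. *Meg3* was also higher there, at 361 and 293 CPM against 72.7 and 40.8 CPM. *Six3* had the other order, with 5.77 and 8.76 CPM in the other cells of mice 1 and 2, below its level in the Wnt4+ Uncx+ cells, and so did *Sh3bgr*. The classes left out held more of both. In mice 1 and 2, *Six3* was at 229 and 53.7 CPM in Wnt4-low and at 25.1 and 15.5 CPM in early epithelial cells. *Sh3bgr* was at 135 and 66.5 CPM and at 152 and 136 CPM in the same order.

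The lists of genes that bear on induction are given by counts, in which *Wnt4*, *Six2*, *Eya1* and *Uncx* were left out. By edgeR's quasi-likelihood test with all 4 mice, the main filter and the main limits of the rule, none of their members other than *Meg3* passed the threshold. DESeq2 also called *Epcam* (adjusted p = 0.0092) and *Irx1* (adjusted p = 0.000166). With no filter beyond 1 count, edgeR called 115 of 18751 genes higher and 113 lower, and members of several lists were among them. The median over all genes tested with the main filter was 0.00. Shares of genes lying apart between the genotypes are to be read against the 17.8% and 18.1% of all genes tested.

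Of 13 progenitor genes tested, 12 had a negative log2 change and 9 (69.2%) were lower in both *Trim28*Δ/Δ mice, with a median of -0.60. The median was -0.93 without mouse 2 and -0.32 in cells with at most 2 *Six2* and *Eya1* UMIs. *Pax2*, a transcription factor needed at every step of nephron formation, was at 149 and 228 CPM against 252 and 314 CPM (adjusted p = 0.7). *Wt1*, which is needed for progenitors to turn epithelial, was at 133 and 131 CPM against 173 and 162 CPM (adjusted p = 0.801). *Meox2*, a homeobox gene of early progenitors chosen after its values were seen, had no UMI in either *Trim28*Δ/Δ mouse and 33 and 26 in the *Trim28*f/f mice. At a floor of 3 counts over the *Trim28*Δ/Δ mice, it was at least 6.48-fold lower (adjusted p = 0.206, edgeR's quasi-likelihood test).

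The genes of induction and the Wnt response stayed closer to the median of all genes. Their own median over 17 genes was -0.16, and 11 were negative, but it was 0.10 without mouse 3 and -0.27 without mouse 2. *Lhx1* was at 563 and 642 CPM against 904 and 581 CPM, *Pax8*, an early target of induction, at 185 and 219 CPM against 266 and 187 CPM, and *Ccnd1* at 1218 and 1343 CPM against 1073 and 1189 CPM. *Fgf8*, a survival signal of the pretubular aggregate that was chosen after its values were seen, was at 14.5 and 25.4 CPM against 34.1 and 70.6 CPM (log2 change -1.39, SE 0.402, adjusted p = 0.488). It was lower in both *Trim28*Δ/Δ mice, with a gap of more than 2-fold between mice 3 and 4 themselves. With all 4 mice and no filter beyond 1 count, *Fgf8* passed as lower in edgeR (adjusted p = 0.000106). It was 1 of the 17 genes to do so, against 113 of 18751 genes.

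Of 17 genes of Fgf and Gdnf signalling, 16 were negative and 11 (64.7%) were lower in both *Trim28*Δ/Δ mice, with a median of -0.43. *Fgfr1*, the receptor with the highest level, overlapped between the genotypes (226 and 249 CPM against 295 and 198 CPM), whereas *Il17rd*, an inhibitor of Fgf signalling, was at 68.8 and 67.5 CPM against 100 and 83.2 CPM (adjusted p = 0.801). Of 13 Notch genes, 1 was higher and 1 was lower in both *Trim28*Δ/Δ mice (7.69% each), with a median of -0.12 that was 0.38 without mouse 3 and -0.49 without mouse 4. *Jag1* was at 159 and 130 CPM against 291 and 111 CPM, and *Hes1*, a Notch target, at 131 and 166 CPM against 227 and 87.3 CPM. In both genes the *Trim28*f/f mice enclosed the *Trim28*Δ/Δ mice. The 20 genes of Bmp and Tgf-beta signalling had a median of 0.00, with 6 higher and 5 lower in both *Trim28*Δ/Δ mice.

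Of 31 genes of the mesenchymal to epithelial transition, 21 were positive, 9 (29.0%) were higher in both *Trim28*Δ/Δ mice and 2 were lower, with a median of 0.19. The median was 0.59 without mouse 3 and 0.07 without mouse 4. With all 4 mice and no filter beyond 1 count, 5 of the 31 passed as higher in edgeR, against 115 of 18751 genes. *Col4a1*, a basement membrane collagen, overlapped at 538 and 495 CPM against 578 and 462 CPM. *Epcam*, an epithelial adhesion molecule, was at 315 and 386 CPM against 199 and 138 CPM (adjusted p = 0.174), and *Cldn7*, a claudin of tight junctions chosen after its values were seen, at 78.2 and 112 CPM against 45.5 and 40.7 CPM (adjusted p = 0.183). *Epcam* and *Cldn7* are also expressed by the ureteric bud. Summed markers of the ureteric bud were at 186 and 473 CPM in mice 1 and 2 against 144 and 164 CPM in mice 3 and 4, and 4 of 7 tested were higher in both *Trim28*Δ/Δ mice. Free RNA held 622 CPM of them, and without mouse 2 their median log2 change dropped from 1.31 to 0.22. The part of such cells or RNA in the adhesion genes was not tested.

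Of 20 genes of early nephron patterning, 6 were higher and 4 lower in both *Trim28*Δ/Δ mice. *Sox11*, a transcription factor of immature cells, was at 600 and 573 CPM against 817 and 641 CPM (adjusted p = 0.838). *Irx1*, a homeobox gene of the middle segments of the nephron named after its values were seen, came close, at 29.7 and 60.8 CPM against 9.56 and 6.52 CPM (log2 change 2.50, SE 0.384, adjusted p = 0.0839). It passed in 9 of 13 alternatives, with a log2 change between 2.24 and 2.92. With all 4 mice and no filter beyond 1 count, 4 of the 20 genes passed as higher in edgeR, against 115 of 18751 genes. The median of the list, 0.21, was -0.06 without mouse 1, 0.05 without mouse 2 and 0.60 without mouse 3.

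**Figure D4:**
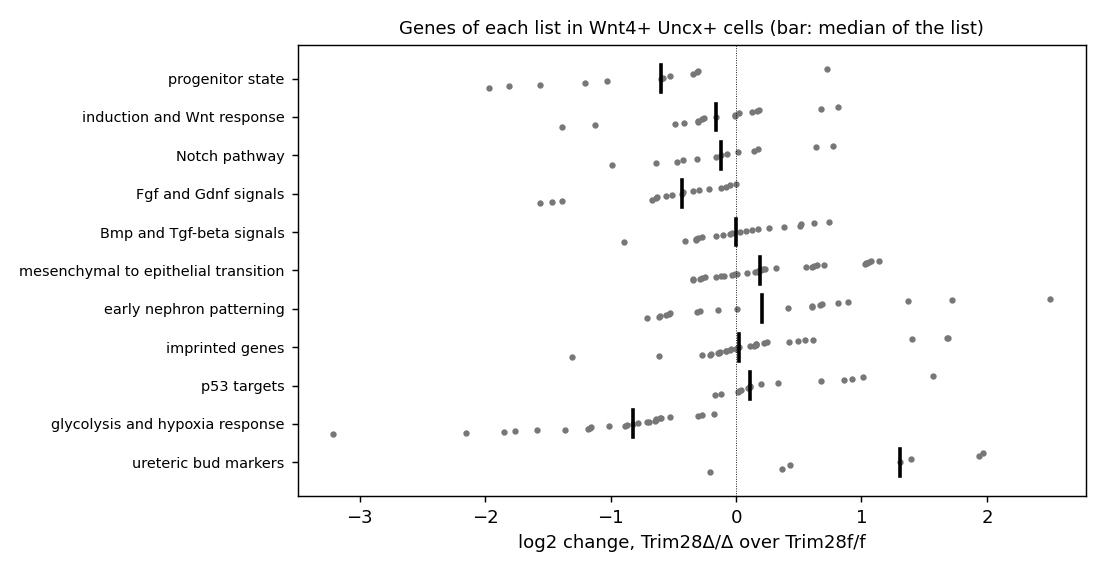
Log2 change of each tested gene (dots, 1 per gene) in 11 gene lists, with the median of the list as a black bar. *Wnt4*, *Six2*, *Eya1*, *Uncx* and *Meox2*, which had no UMI in 1 genotype, are not drawn as dots. Of the lists drawn, the medians were lowest for glycolysis and hypoxia genes (-0.82) and highest for ureteric bud markers (1.31). The progenitor median includes *Meox2*.

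Glycolysis and hypoxia genes had a median of -0.82, and all 25 tested were negative, with mouse 3 apart from the other mice. Their summed level was 3725 and 4261 CPM in mice 1 and 2, 8207 CPM in mouse 3 and 4045 CPM in mouse 4. *Slc16a3*, a lactate exporter chosen after its values were seen, was at 5.80, 8.02, 115 and 14.8 CPM in mice 1 to 4, and *Ldha*, lactate dehydrogenase, at 396, 458, 1176 and 547 CPM. Only 8 of the 25 genes (32.0%) were lower in both *Trim28*Δ/Δ mice. Without mouse 3 the median was -0.06, and without mouse 4 it was -1.26. With all 4 mice and no filter beyond 1 count, 17 of the 25 passed as lower in edgeR, against 113 of 18751 genes.

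The 80 tested genes for ribosomal proteins of the cytosol were all negative, and 76 (95%) were lower in both *Trim28*Δ/Δ mice, with a small median of -0.23. All 83 genes of the list summed to 253609 and 267769 CPM against 299386 and 280333 CPM, with mouse 4 nearer to mouse 2 than to mouse 3. The genes were counted in the same 4 mice, so that their shared sign does not make 80 separate observations. None of the 80 passed the threshold. Their median ranged from -0.15 to -0.29 over the alternatives.

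Of 29 imprinted genes tested, *Meg3* passed, 7 were higher and 3 lower in both *Trim28*Δ/Δ mice, and the median was 0.03, or 0.26 without mouse 3. *Zdbf2*, an imprinted gene named after its values were seen, was at 13.8 and 20.7 CPM against 45.2 and 40.9 CPM (adjusted p = 0.248). The 13 tested genes of interferon response and viral RNA sensing had a median of 0.27, with 1 higher and 2 lower in both *Trim28*Δ/Δ mice. This median was 0.01 without mouse 2, -0.02 without mouse 3, 0.82 without mouse 4, -0.21 without the cells that Scrublet marked and -0.44 in cells with at most 2 *Six2* and *Eya1* UMIs. Of 15 p53 targets, 8 (53.3%) were higher in both *Trim28*Δ/Δ mice, with a median of 0.11 (0.08 to 0.47 without each mouse), and *Cdkn1a*, the cell cycle inhibitor p21, overlapped at 24.6 and 50.1 CPM against 53.7 and 28.1 CPM. The 15 immediate early genes and the 97 cell cycle genes had medians of 0.01 and -0.10. The first was 0.43 without mouse 1 and -0.60 without mouse 2, and the second was -0.27 without mouse 1.

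Markers of other cells were low but not even. Of 8 stroma markers tested, 6 were lower in both *Trim28*Δ/Δ mice, with a median of -1.17, and summed stroma markers lay between 61.6 and 146 CPM in the mice and at 336 CPM in free RNA. Without the cells that Scrublet marked, this median was -0.03. With no filter beyond 1 count, 3 of the 8 passed as lower and 2 as higher in edgeR, against 113 and 115 of 18751 genes. Immune markers summed to 15.6 to 19.6 CPM in mice 1 to 3 and to 138 CPM in mouse 4. Summed markers were at 222.7 to 454 CPM for the proximal tubule, 134 to 333 CPM for podocytes, 432 to 543 CPM for the loop and distal tubule, 93.2 to 262 CPM for endothelium and 761 to 1766 CPM for erythroid cells, and in free RNA at 1546, 329, 1597, 376 and 32213 CPM. Median log2 changes of the tested markers were 0.01, 0.64, 0.03, 0.62 and -0.44 in the same order, and 0.29 for the single immune marker tested. Single mice moved these too: without mouse 1 the median was -0.91 for the proximal tubule and -0.40 for podocytes, without mouse 2 it was -0.42 for the loop and distal tubule, and the endothelial median was 0.05 without mouse 3 and 1.70 without mouse 4. The erythroid median was -0.12 without mouse 2 and 0.08 without mouse 4. At most 1 marker of each list was below 1 CPM in all. The part of these cells in the results was not tested.

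The third comparison asked whether the genotypes differ otherwise here than in the steps before and after. Wnt4-low progenitors, named by their rule alone, stood in for the step before, with at least 10 *Six2*, *Eya1* and *Uncx* UMIs and at most 1 *Wnt4* UMI. Of these there were only 12 and 17 cells in mice 1 and 2, against 101 and 137 in mice 3 and 4, so that their *Trim28*Δ/Δ sums were thin. The class was also not alike in the genotypes. In mice 1 and 2 its cells held 40.5 and 20.5 raw CPM of *Wt1* against 147 and 174 CPM in mice 3 and 4 (adjusted p = 0.0401 in a fit of these cells alone, edgeR). *Epcam* was at 940 and 864 CPM against 502 and 225 CPM, and *Ccnd1* at 1902 and 1406 CPM against 766 and 336 CPM. *Six2*, which helped to choose these cells and is only described, was at 89.9 and 30.7 CPM against 134 and 199 CPM. In each mouse *Epcam* was above its level in the Wnt4+ Uncx+ cells (315, 386, 199 and 138 CPM in mice 1 to 4). *Lhx1*, at 355, 361, 320 and 123 raw CPM, was below it in each mouse. Whether the class precedes the Wnt4+ Uncx+ cells was not tested. The part of the genotype difference within this class in the following results was not tested either. With the mouse as a block, the difference between the genotypes was itself different in 3 of 11132 genes (0.0269%, edgeR), and 841 had an unadjusted p under 0.05.

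*Hes5*, a direct Notch target, was higher in the Wnt4-low progenitors of *Trim28*Δ/Δ mice, at 165 and 98.9 CPM against 11.4 and 5.83 CPM. In Wnt4+ Uncx+ cells it was at 100.4 and 36.3 CPM against 47.8 and 31.8 CPM, where the groups overlapped. The log2 difference between the genotypes was 3.27 lower in Wnt4+ Uncx+ cells (-3.27, SE 0.348, adjusted p = 0.00425, edgeR). In the 250 bases before the start of *Hes5* (chr4:154960673-154960922 on GRCm38, plus strand, from RefSeq), which are shown because Notch acts on this gene through RBPJ, the letters TGGGAA of the RBPJ motif, or TTCCCA on the other strand, are in capitals.
*Hes5*: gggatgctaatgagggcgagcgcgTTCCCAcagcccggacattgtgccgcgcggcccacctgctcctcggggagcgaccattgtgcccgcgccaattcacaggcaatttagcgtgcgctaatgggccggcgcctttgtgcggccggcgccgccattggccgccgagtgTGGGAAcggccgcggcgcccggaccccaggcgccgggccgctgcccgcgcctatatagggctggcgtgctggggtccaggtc
The motif was present once on each strand, and 21.6% of 32851 promoters of this length held it at least once on either strand. A match of letters is a description and does not show binding.

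*Pcp4*, which encodes a small calmodulin-binding protein, had the opposite order. It was at 30.4 and 33.0 CPM in Wnt4-low progenitors of mice 1 and 2 against 177 and 134 CPM, and at 261 and 527 CPM against 300.0 and 195 CPM in Wnt4+ Uncx+ cells (difference of log2 changes 3.06, SE 0.287, adjusted p = 0.00209, edgeR). *Ttc28*, a tetratricopeptide repeat gene, was at 43.5 and 30.4 CPM against 201 and 304 CPM in Wnt4-low progenitors and at 38.0 and 43.5 CPM against 41.7 and 79.1 CPM in Wnt4+ Uncx+ cells (2.30, SE 0.321, adjusted p = 0.0448, edgeR). In these genes the genotypes lay apart in the Wnt4-low progenitors and overlapped in the Wnt4+ Uncx+ cells. With at most 2 *Wnt4* UMIs allowed in the Wnt4-low cells, no gene passed, at an adjusted p of 0.143 for *Pcp4*, 0.0568 for *Hes5* and 0.0726 for *Ttc28*, and without mouse 2 *Hes5* alone of these genes passed (adjusted p of 0.0769 for *Pcp4* and 0.255 for *Ttc28*).

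**Figure D5:**
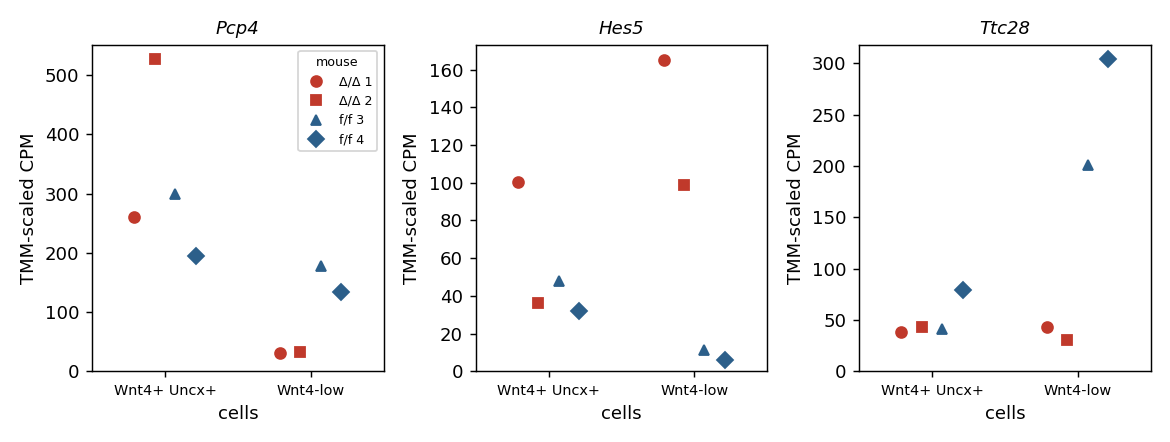
TMM-scaled CPM of *Pcp4*, *Hes5* and *Ttc28* per mouse in Wnt4+ Uncx+ cells and in Wnt4-low progenitors, red for *Trim28*Δ/Δ and blue for *Trim28*f/f. The genotypes lay apart in the Wnt4-low progenitors, for example at 165 and 98.9 against 11.4 and 5.83 CPM of *Hes5*, and overlapped in the Wnt4+ Uncx+ cells.

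For the genes that rose in Wnt4+ Uncx+ cells, no difference to the Wnt4-low progenitors passed. *Six3* was also higher there, at 229 and 53.7 raw CPM against 0.477 and 0.719 CPM (adjusted p = 0.0166 in a fit of these cells alone, edgeR). *Sh3bgr* was at 135 and 66.5 raw CPM against 11.4 and 2.52 CPM (adjusted p = 0.0642). The adjusted p of the differences was 0.919 for *Six3* and 0.934 for *Sh3bgr*.

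The step after was taken as early epithelial cells, with at least 5 *Wnt4* UMIs, at least 3 UMIs of *Pax8* and *Lhx1* together and at most 2 of *Six2*, *Eya1* and *Uncx*, which were 53, 69, 124 and 60 cells in mice 1 to 4. Their ureteric bud markers summed to 1303 to 2007 CPM, above the 622 CPM of free RNA. That list shares *Calb1* with the loop and distal tubule markers, which summed to 993 to 1258 CPM in this class and to 1597 CPM in free RNA. Whether the class held cells of the ureteric bud was not tested. *Trim28* was at 66.9 and 66.0 raw CPM in mice 1 and 2, against 102 and 146 CPM in mice 3 and 4. The part of any ureteric bud cells in the following result was not tested either. Of 11433 genes, 0 (0.0%) differed in their genotype change between these cells and the Wnt4+ Uncx+ cells by edgeR's quasi-likelihood test, and 526 had an unadjusted p under 0.05. In a fit of the early epithelial cells alone, 0 of 10792 genes passed, and *Trim28* had a log2 change of -0.945 (adjusted p = 0.998, edgeR). Its difference between the classes was -1.51 (SE 0.247, adjusted p = 0.665, edgeR). The simulated counts did not cover this test, so that its 0 calls do not show that the genotype changes were alike. DESeq2 was not run on this comparison. *Sh3bgr* was at 152 and 136 raw CPM against 2.51 and 6.64 CPM in the early epithelial cells, and *Six3* at 25.1 and 15.5 CPM against 0.502 and 1.99 CPM.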

How the data were processed

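Kidneys of 4 embryos were dissociated, tagged, pooled and sequenced with a 3′ kit. The authors counted UMIs per gene and tag with Cell Ranger (6.0.0 in the submitters' processing notes, 4 in the matrix header) and deposited raw counts of 32285 genes and 12 tags for 3921239 barcodes, with no selection of cells. No source used here gives their genome build. Of 21386 barcodes with at least 6890 UMIs, 19273 passed the limits of 200 genes (minimum) and 10% mitochondrial UMIs (maximum). Of these, 9175 had several tags or too few tag counts, and 6495 carried a tag that the deposited list names. Multiply tagged cells were thereby left out, and Scrublet (scanpy 1.11.5) was run as an alternative.

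Counts were summed per mouse, filtered with filterByExpr, scaled by TMM and tested with edgeR 4.0.16 (quasi-likelihood, 2 against 2, Benjamini-Hochberg, threshold 0.05, R 4.3.3). The SE is the absolute log2 change over the square root of F. The test was tested on simulated data. DESeq2 1.42.0, upper quartile factors, other limits of the rule and leaving out each mouse were alternatives. Shares were compared with exact permutation tests (scipy 1.17.1), and phases were called with Seurat 5.3.0. Positions came from GENCODE M21 (GRCm38) by Ensembl identifier. The text names *Trim28*, the genes of the rule and *Tmem100*, the genes past the threshold, and from each list those past it or the 4 with the highest level, and for comparisons of genotype changes those past the threshold. Leading genes against other cells are the first 17 by rank and 2 picked by their ratio without the added CPM, and any other gene is marked where it is named. The endothelial background was added after the data were seen. The cells, lists and rules were chosen with earlier results of these data known. Each mouse is a separate embryo, but the mice shared 1 library.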

Additional observations from a re-analysis of the deposited data

Results flagged for a closer look

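The difference between the genotypes was not the same in Wnt4+ Uncx+ cells and in Wnt4-low progenitors for 3 genes, by the test of that difference. For *Pcp4* it was 3.06 higher on the log2 scale, for *Ttc28* 2.30 higher and for *Hes5* it was lower (-3.27) in the Wnt4+ Uncx+ cells. The Wnt4-low progenitors, named by their rule alone, numbered 12 and 17 in the *Trim28*Δ/Δ mice. The class was not alike in the genotypes, with *Wt1* at 40.5 and 20.5 raw CPM in mice 1 and 2 against 147 and 174 CPM in mice 3 and 4. The part of this unlikeness in the 3 genes was not tested.

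Outside the cells used, 427 of 3603 cells with a single tag that the deposited list does not name met the rule on genes (11.9%). No source used here gives their mouse or genotype, and they entered no comparison. Of the 9175 cells with several tags or too few tag counts, 842 met it (9.18%).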

How the results depend on the processing

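The lower share of all assigned cells kept its sign under every limit tried, and without each mouse in turn the difference lay between -6.78 and -2.93 percentage points. The share of the lineage reversed to -0.763 points with at least 8 *Wnt4* UMIs, and lay between 1.40 and 4.15 points without each mouse. For the phases the range was -14.4 to 2.72 points, where leaving out mouse 4 turned the sign.

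The 11 genes past the threshold became 25 with DESeq2, 228 with no filter beyond 1 count, 6 with at least 8 *Wnt4* UMIs, 5 with the highest tag at 90% and 21 in cells with at most 2 *Six2* and *Eya1* UMIs, and they lay between 6 and 247 without each mouse: 7 without mouse 1, 6 without mouse 2, 96 without mouse 3 and 247 without mouse 4. DESeq2 called all 11. The 3 genes that differed against Wnt4-low progenitors became 0 with at most 2 *Wnt4* UMIs and 121 with no filter, and lay between 1 (without mouse 2) and 101 (without mouse 3), with 45 without mouse 1 and 41 without mouse 4. Against early epithelial cells 0 became 104 with no filter and lay between 0 and 300, with 14 without mouse 3 and 300 without mouse 4. The cause was not tested. Where 1 mouse stood for a genotype, its spread was taken to equal that of the other genotype.

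Of 173 values of 15 named genes under the alternatives, none changed sign, 38 lost the threshold and 1 gained it (*Tmem100* without mouse 3). *Six3*, *Sh3bgr* and *Gm11100* passed in each of 13.

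With 2 mice a genotype, the permutation tests had no p under 0.3333, and the *Trim28*Δ/Δ sums were the shallower ones. No paired analysis was possible because the mice share no replicate numbers across genotypes and the bulk samples were not analysed here.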
